A study of Rattus norvegicus with 15 samples.

Results

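The 6 genes described here encode liver enzymes that break down histidine, serine and glutamine: Hal, Uroc1, Amdhd1, Ftcd, Sds and Gls2. They were chosen by gene name among the 45598 probes of a rat expression array, with earlier results of these data known. Each was read by 1 probe with 1 spot, so 6 probes carry all values below, and all 6 were well above background on every one of the 15 arrays.

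Histidine is broken down in the liver in a chain of reactions. Histidine ammonia-lyase (Hal) removes ammonia to give urocanate, urocanate hydratase (Uroc1) and imidazolonepropionase (Amdhd1) convert urocanate to formiminoglutamate, and formimidoyltransferase cyclodeaminase (Ftcd) passes the formimino group to tetrahydrofolate and leaves glutamate. Serine dehydratase (Sds) turns serine into pyruvate and ammonia, and the liver glutaminase (Gls2) releases ammonia from glutamine. In the liver lobule such ammonia-releasing enzymes, together with the urea cycle and gluconeogenesis, are known to be most abundant near the portal vein, whereas glutamine synthetase (Glul) is confined to cells around the central vein.

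The cells were hepatocytes from female Wistar rats, sorted after Hoechst33342 staining of their DNA into 2c, 4c and 8c fractions, where 2c is the DNA content of a diploid cell before replication. There were 5 experiments with 1 array per fraction, n = 5 per group, from rats aged 12, 14, 6, 5 and 6 weeks in experiments 1 to 5. All groups were untreated as far as the labels say, and the number of animals in an experiment is not stated. DNA content alone does not separate a tetraploid cell from a diploid cell that has copied its DNA. Levels are given as log2 of the processed signal, with 0 set at each array's 75th percentile, so they are shares of the RNA on an array and not amounts per cell or per gene copy. Because RNA was pooled over all cells of a fraction, fewer cells that express a gene and less RNA per cell cannot be told apart.

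Hepatocyte transcripts were abundant on all arrays, and transcripts of other cell types differed between fractions. All 10 hepatocyte markers were measured, with a summed log2 level of 9.49 to 10.01 in 8c, 9.58 to 10.15 in 4c and 9.51 to 10.20 in 2c. None of them was called in any comparison, or had an unadjusted p under 0.05 (limma). Markers of Kupffer cells, the resident macrophages of the liver, were lower in 8c than in 2c for 8 of 9 measured genes. So were 5 of 7 stellate cell and 4 of 7 sinusoidal endothelial markers, against 1.56% of all features (limma, adjusted p under 0.05). In 4c, 7, 5 and 3 of these markers were lower than in 2c, against 1.01% of all features. The summed log2 level of the Kupffer markers lay between -2.95 and -0.80 in 8c, between -2.51 and -0.66 in 4c and between -0.35 and 3.89 in 2c. That of the stellate markers lay between -2.04 and -0.28 in 8c, between -1.96 and -0.45 in 4c and between 0.10 and 3.34 in 2c. For the endothelial markers it lay between -4.12 and -2.00 in 8c, between -3.69 and -2.23 in 4c and between -1.80 and 0.97 in 2c. These lists thus ran higher in 2c. The Kupffer marker Cd163 and the stellate marker Lrat were above background on none of the 8c or 4c arrays. The Kupffer markers Cd68 and Csf1r and the stellate markers Bgn and Pdgfrb were above background on all arrays. The stellate marker Rgs5 was above background on 2 arrays in 2c, 4 in 4c and 3 in 8c. Pancreatic acinar transcripts were abundant on 6 arrays, namely 8c of experiments 1, 2 and 3, 4c of experiment 2, and 2c of experiments 1 and 2. An array was counted here when the median log2 level of the measured acinar markers was above -4. In the order just given, that median was -1.04, 3.55, -1.07, 1.28, 1.93 and 4.62. On the other arrays it was -6.44 or lower. The summed log2 level of the 25 measured acinar markers lay between 4.01 and 9.56 in 8c, between 3.75 and 7.73 in 4c and between 4.03 and 10.40 in 2c. The part of these transcripts in the differences below was not tested, and without the 6 acinar arrays none of the 17055 features was called in any of the 3 comparisons (limma; 1223, 1212 and 846 had an unadjusted p under 0.05 for 8c minus 2c, 4c minus 2c and 8c minus 4c). Every call given here was therefore lost in that fit, and the differences it gave are stated beside the results. In it, 8c and 2c of the same experiment remained only for experiments 4 and 5. For 4c and 2c, experiments 3, 4 and 5 remained.

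Because each gene rests on a single probe, the probes of the 4 genes that varied most alike are shown, 5′ to 3′, with the polyadenylation signal AATAAA in capitals where present.
Hal: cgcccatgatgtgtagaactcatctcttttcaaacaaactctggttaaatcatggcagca
Uroc1: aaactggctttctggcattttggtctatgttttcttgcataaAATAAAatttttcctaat
Amdhd1: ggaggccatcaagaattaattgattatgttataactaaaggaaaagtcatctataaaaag
Gls2: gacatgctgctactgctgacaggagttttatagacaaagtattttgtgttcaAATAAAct
The signal stood in the Uroc1 and Gls2 probes and in 9.04% of all probes on the array. Per the file headers, which use the rn4 assembly, the Hal probe lies at chr7:30551067-30551126 on the plus strand and the Amdhd1 probe at chr7:30557370-30557429 on the minus strand. Only 6243 bases separate them, and in the RefSeq gene order (GRCr8) Hal and Amdhd1 are direct neighbours. The Uroc1 probe lies at chr4:124623352-124623410 and the Gls2 probe at chr7:1495216-1495275, both on the plus strand. The Ftcd probe lies at chr20:12470464-12470523 and the Sds probe at chr12:37281886-37281945, both on the minus strand. Sds has a close relative, Sdsl, as its direct neighbour in the same gene order, and Sdsl was read by a probe of its own. Which part of each gene lies under a probe was not determined.

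The first question was whether polyploid cells differ from 2c cells in these enzymes. Hal and Uroc1, which carry out the opening steps of histidine breakdown, were higher in 8c than in 2c cells, by 1.45-fold and 1.41-fold. Uroc1 was also higher in 4c than in 2c cells, by 1.30-fold. The other members had positive mean differences in both comparisons but did not pass the test, and no member was called between 8c and 4c. Against 2c, 2 of 6 members were called higher in 8c, where 0.809% of the 17055 tested features were called higher (limma, adjusted p under 0.05), and 1 of 6 in 4c, where 0.264% were. The median log2 difference of the 6 members was 0.37 for 8c minus 2c and 0.38 for 4c minus 2c, beside -0.02 and -0.03 over all tested features. The balance of calls over all features moved with the scaling. Against 2c it was 138 higher and 266 lower in 8c here, 177 and 202 with quantile normalization, 187 and 216 with median scaling, and 225 and 192 when all probes of an array set its 75th percentile. In 4c it was 45 higher and 172 lower here and 72 and 111 with the last of these.

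**Figure D1:**
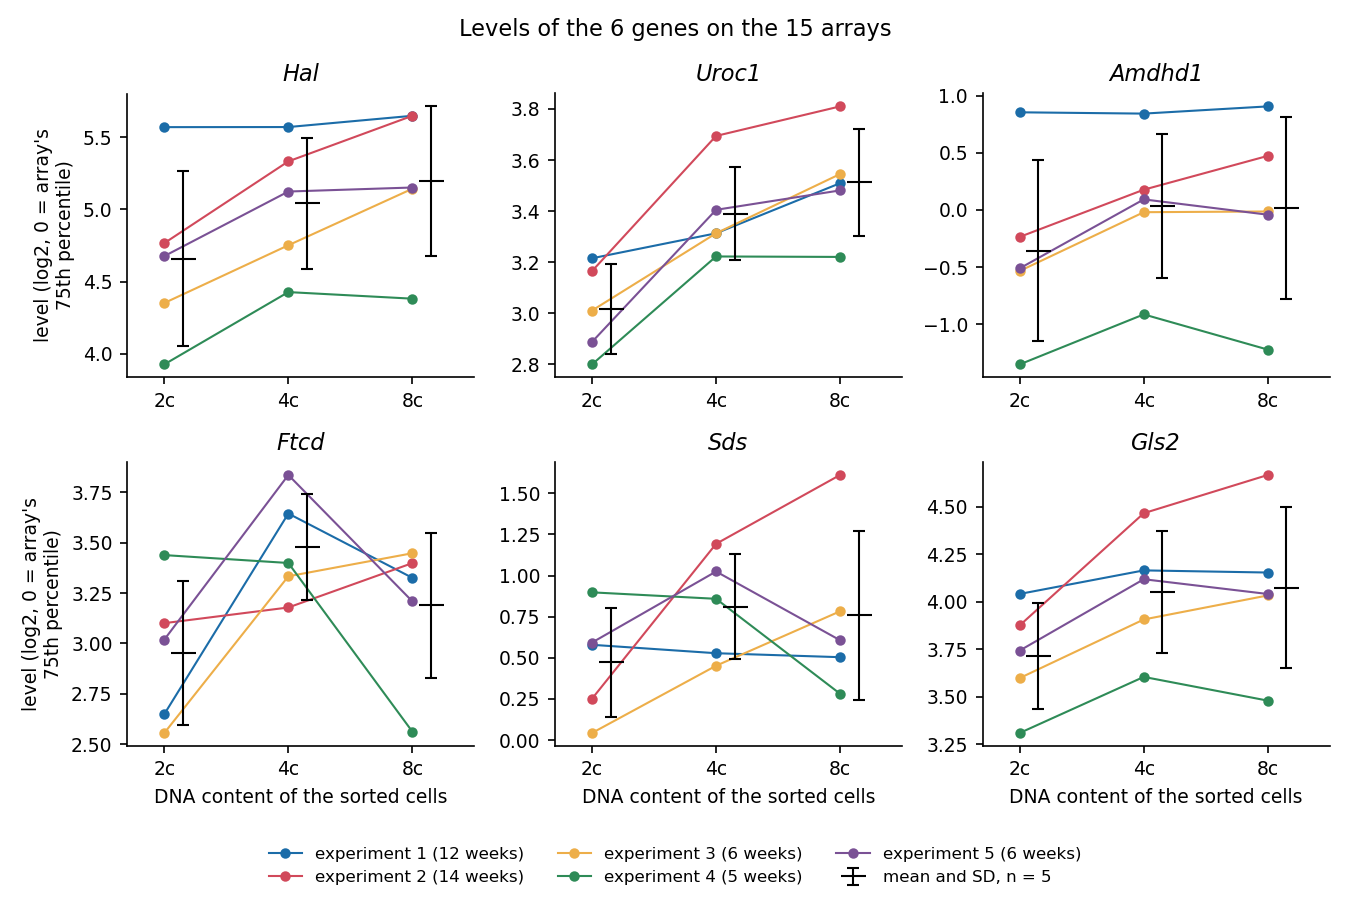
Level of each gene on each array (vertical axis, log2, 0 at the array's 75th percentile) by DNA content (horizontal axis), with 1 coloured line per experiment and black marks for the mean and SD of n = 5. For Uroc1 all 4c and 8c points lie above all 2c points, the lowest of them only just. For Hal and Amdhd1 the lines of the experiments lie further apart than the fractions within them, and Ftcd and Sds in experiment 4 drop at 8c.

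Hal is the enzyme that commits histidine to breakdown. Its log2 level in experiments 1 to 5 was 5.57, 4.77, 4.35, 3.93 and 4.68 in 2c, then 5.57, 5.33, 4.75, 4.43 and 5.12 in 4c, and 5.65, 5.65, 5.14, 4.38 and 5.15 in 8c. The fractions overlapped because the experiments differed, yet 8c lay above 2c in 5 of 5 experiments. The mean was 5.19 ± 0.52 in 8c and 4.66 ± 0.61 in 2c (SD, n = 5 each). The log2 difference within experiments was 0.54 with a standard error of 0.11 (limma, adjusted p = 0.0348). It was smallest in experiment 1, at 0.08, and largest in experiment 2, at 0.88. For 4c minus 2c the difference was 0.38 ± 0.11 (SE), positive in 5 of 5 experiments, and did not pass (limma, adjusted p = 0.135).

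The Hal call was sensitive to the processing and to single experiments. It was lost with quantile normalization, at 0.48 (limma, adjusted p = 0.0643), and with no filter on dim probes, at 0.54 (limma, adjusted p = 0.126). Leaving out experiment 2, 3, 4 or 5 gave differences of 0.45, 0.47, 0.56 and 0.55, with limma adjusted p of 0.151, 0.123, 0.103 and 0.151. Without experiment 1 it was 0.65 (limma, adjusted p = 0.0295). Of single arrays, the call held without 2c or 8c of experiment 1 or 4c of experiment 3, and was lost without any other, at limma adjusted p of 0.0522 to 0.0979. The arrays lay on 2 slides, and the difference was 0.50 within slide 1 and 0.47 within slide 2. Slide 1 held 8c and 2c pairs only for experiments 1 and 2, at 0.08 and 0.88. Slide 2 held them only for experiments 4 and 5, the pairs that also remained without the acinar arrays. With the slide as a further term the Hal difference was 0.48 (limma, adjusted p = 0.0979). In experiment 3 the 8c array lay on slide 2 and the others on slide 1, and no other experiment was split. The slide term therefore gave the same fit as leaving out that 8c array and is no separate check. With the 6 acinar arrays left out the Hal difference was 0.45 (limma, adjusted p = 0.483), in a fit in which none of the 17055 features passed.

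Uroc1 acts on the product of Hal and was the most even of the 6 genes within a fraction. Its log2 level in experiments 1 to 5 was 3.21, 3.16, 3.01, 2.80 and 2.89 in 2c, then 3.31, 3.69, 3.31, 3.22 and 3.40 in 4c, and 3.51, 3.81, 3.54, 3.22 and 3.48 in 8c. Every 8c array and every 4c array lay above every 2c array, by a thin margin. The highest 2c level was 3.215, in experiment 1, and the lowest levels were 3.220 in 8c and 3.222 in 4c, both in experiment 4. Of all features, 0.475% were higher in 8c and 0.381% higher in 4c with fractions that did not overlap 2c. The mean was 3.51 ± 0.21 in 8c, 3.39 ± 0.18 in 4c and 3.01 ± 0.18 in 2c (SD, n = 5 each). The log2 difference was 0.50 ± 0.08 for 8c minus 2c (SE; limma, adjusted p = 0.00816) and 0.37 ± 0.08 for 4c minus 2c (SE; limma, adjusted p = 0.0471).

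The 8c difference of Uroc1 was 0.47 within slide 1, 0.51 within slide 2 and 0.48 with the slide as a further term (limma, adjusted p = 0.0295). The last of these is the fit without 8c of experiment 3. The fits within a slide held 8c and 2c pairs only for experiments 1 and 2 on slide 1 and experiments 4 and 5 on slide 2. The 8c difference missed the threshold without experiment 2, at 0.46 (limma, adjusted p = 0.055), and without experiment 5, at 0.47 (limma, adjusted p = 0.0815). Without the 6 acinar arrays it was 0.48 (limma, adjusted p = 0.491). The 4c call passed narrowly and was lost without any 1 of the 5 experiments, at differences of 0.34 to 0.44 and limma adjusted p of 0.0753 to 0.244. Of single arrays, it held without 2c of experiment 1 or 4 and was lost without any other. It was also lost with normexp background correction, at 0.38 (limma, adjusted p = 0.082). With the slide as a further term, again the fit without 8c of experiment 3, it was lost at 0.37 (limma, adjusted p = 0.0637). With no filter on dim probes the 4c difference was 0.37 (limma, adjusted p = 0.219), and without the acinar arrays it was 0.41 (limma, adjusted p = 0.518).

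Amdhd1, which acts after Uroc1 in the chain and is the neighbour of Hal in the genome, varied most between experiments. Its log2 level in experiments 1 to 5 was 0.86, -0.24, -0.53, -1.35 and -0.51 in 2c, then 0.84, 0.18, -0.02, -0.91 and 0.09 in 4c, and 0.91, 0.47, -0.01, -1.22 and -0.04 in 8c. Experiment 1 was highest and experiment 4 lowest in every fraction, and the fractions overlapped widely. The mean was 0.02 ± 0.80 in 8c and -0.36 ± 0.80 in 2c (SD, n = 5 each). The log2 difference of 8c minus 2c was 0.38 ± 0.11 (SE), positive in 5 of 5 experiments, and did not pass (limma, adjusted p = 0.131). For 4c minus 2c it was 0.39 ± 0.11 (SE), positive in 4 of 5 experiments (limma, adjusted p = 0.129).

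Gls2 feeds glutamine nitrogen into the urea cycle of periportal cells. Its log2 level in experiments 1 to 5 was 4.04, 3.88, 3.60, 3.31 and 3.74 in 2c, then 4.17, 4.47, 3.91, 3.60 and 4.12 in 4c, and 4.15, 4.67, 4.03, 3.48 and 4.04 in 8c. The 2c array was the lowest of the 3 in every experiment, although the fractions overlapped across experiments. The mean was 4.08 ± 0.42 in 8c, 4.05 ± 0.32 in 4c and 3.71 ± 0.28 in 2c (SD, n = 5 each). The log2 difference was 0.36 ± 0.09 for 8c minus 2c (SE; limma, adjusted p = 0.0852) and 0.34 ± 0.09 for 4c minus 2c (SE; limma, adjusted p = 0.125), neither past the threshold. With each array scaled to the 75th percentile of all its probes, the 8c difference was 0.44 and passed (limma, adjusted p = 0.0354).

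Hal, Uroc1, Amdhd1 and Gls2 were thus each higher in 8c than in 2c in all 5 experiments. This held for 7.19% of all features. In 4c, Hal, Uroc1 and Gls2 were higher than in 2c in all 5 experiments, as were 5.27% of all features.

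Ftcd, which closes histidine breakdown and links it to folate, had its highest mean level in 4c. Its log2 level in experiments 1 to 5 was 2.65, 3.10, 2.56, 3.44 and 3.02 in 2c, then 3.64, 3.18, 3.33, 3.40 and 3.84 in 4c, and 3.33, 3.40, 3.45, 2.56 and 3.21 in 8c. That mean was 3.48 ± 0.26 in 4c, beside 3.19 ± 0.36 in 8c and 2.95 ± 0.36 in 2c (SD, n = 5 each). The log2 difference was 0.24 ± 0.22 for 8c minus 2c (SE; limma, adjusted p = 0.684), with a 95% interval of -0.26 to 0.73. For 4c minus 2c it was 0.53 ± 0.22 (SE; limma, adjusted p = 0.29). In experiment 4 the 8c array lay 0.88 below the 2c array on the log2 scale, whereas it lay 0.89 above in experiment 3. Without the 6 acinar arrays the 8c minus 2c difference turned to -0.28, and within slide 2 it was -0.34. Both fits held 8c and 2c of the same experiment only for experiments 4 and 5, so they are not separate checks. Whether Ftcd differs from Hal or Uroc1 in its response to DNA content was not tested.

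Sds converts serine to pyruvate, a source of glucose in the fasting liver, and its fractions overlapped. Its log2 level in experiments 1 to 5 was 0.58, 0.25, 0.04, 0.90 and 0.59 in 2c, then 0.53, 1.19, 0.45, 0.86 and 1.02 in 4c, and 0.50, 1.61, 0.78, 0.28 and 0.61 in 8c. The 8c minus 2c difference ranged from -0.62 in experiment 4 to 1.36 in experiment 2 and was positive in 3 of 5 experiments. On average it was 0.28 ± 0.23 (SE; limma, adjusted p = 0.625), with a 95% interval of -0.23 to 0.79. For 4c minus 2c it was 0.34 ± 0.23 (SE; limma, adjusted p = 0.51). Without the 6 acinar arrays the 8c minus 2c difference was -0.27, and within slide 2 it was -0.30. These fits too held 8c and 2c pairs only for experiments 4 and 5. The neighbouring Sdsl, named here for its position after its values were seen, differed by 0.37 ± 0.09 (SE) for 8c minus 2c, positive in 5 of 5 experiments, and did not pass (limma, adjusted p = 0.0644).

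**Figure D2:**
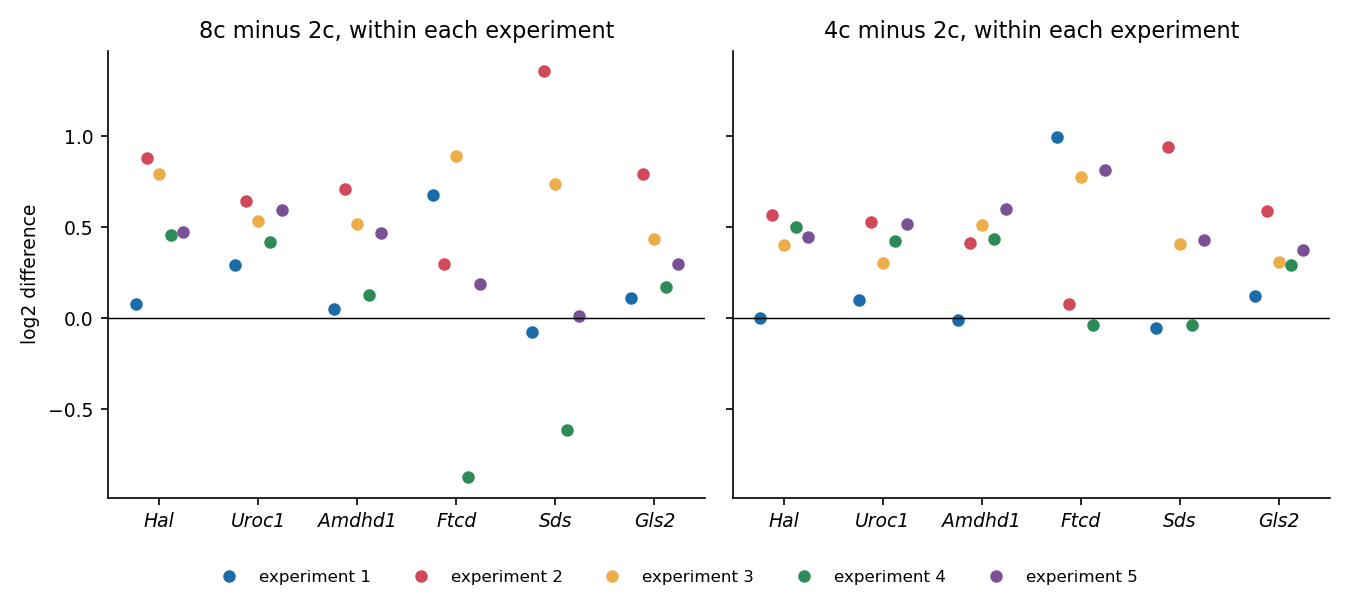
Difference between fractions of the same experiment (vertical axis, log2) for each gene, as 8c minus 2c on the left and 4c minus 2c on the right, with 1 coloured point per experiment. Points of Uroc1, Hal and Gls2 are all above 0 in both panels, experiment 1 is the lowest point of these 3 genes, and the Ftcd and Sds points of experiment 4 fall furthest below 0 in the left panel, at -0.88 and -0.62.

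The second question was whether 8c cells go beyond 4c cells. No member was called in 8c minus 4c or had an unadjusted p under 0.05 (limma), where 0.651% of all features were called in either direction and the differences of the members ran from -0.29 for Ftcd to 0.15 for Hal. The median was 0.0037 over the members and 0.0042 over all features. For Uroc1 the difference was 0.12 with a 95% interval of -0.04 to 0.29, and for Hal 0.15 with an interval of -0.09 to 0.40. The interval was -0.26 to 0.23 for Amdhd1 and -0.19 to 0.23 for Gls2. It was wider for Ftcd, from -0.78 to 0.20, and for Sds, from -0.56 to 0.46. Within experiments, Hal and Uroc1 followed the order 2c, 4c, 8c from low to high in 4 of 5 experiments, with experiment 4 as the exception, where 4c and 8c were nearly equal. For each of the 6 genes the neighbouring 4c and 8c levels did not differ beyond their spread in this test.

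**Figure D3:**
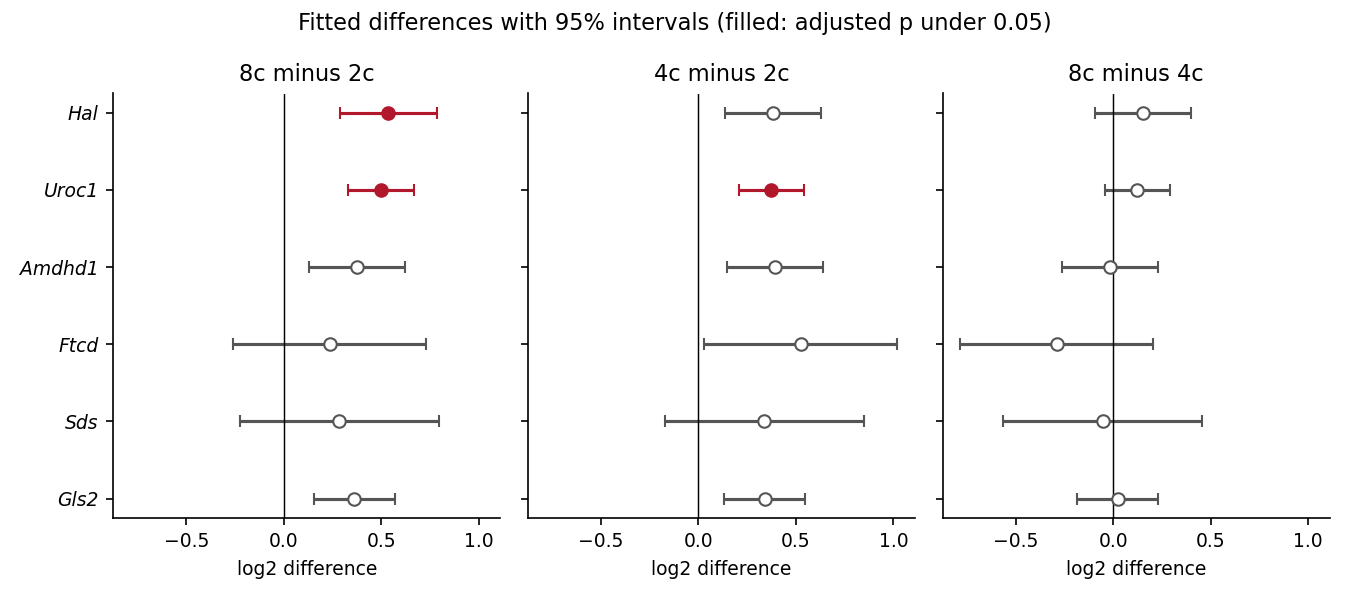
Fitted log2 differences within experiments (horizontal axis, points) with 95% intervals (bars) for the 6 genes, in 3 panels for 8c minus 2c, 4c minus 2c and 8c minus 4c. Filled points have an adjusted p under 0.05, which Hal and Uroc1 reach in the left panel and Uroc1 in the middle panel, and all intervals in the right panel include 0.

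Animals of different ages stood behind the experiments, so the dependence of the 8c minus 2c difference on age was tested as an interaction. No member passed, and 0 of 17055 features (0%) did (limma, lowest adjusted p over all features 0.612, with 820 features at an unadjusted p under 0.05). The slope was 0.0015 ± 0.0334 per week for Hal and 0.0005 ± 0.0230 per week for Uroc1 on the log2 scale (SE). The steepest was that of Sds, at 0.11 ± 0.06 per week (SE; limma, adjusted p = 0.959). Mean levels themselves differed between experiments by more than between fractions for Hal, Amdhd1, Gls2 and Sds. The mean of the 3 Hal levels was 5.60 in experiment 1, at 12 weeks, and 4.24 in experiment 4, at 5 weeks. For Amdhd1 these means were 0.87 and -1.16. The Gls2 means ran from 3.46 in experiment 4 to 4.34 in experiment 2, and those of Sds from 0.43 in experiment 3 to 1.02 in experiment 2. Age, slide and experiment cannot be told apart in such differences, because experiments 1 and 2 are the older ones and lie on slide 1 alone.

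Of the 6 genes, 4 moved closely together from array to array. Correlations were computed over the 15 arrays on levels minus the mean of their experiment. They are descriptions, since the points share experiments, arrays and the scaling. Differences between fractions were left in, so a difference shared by a pair of genes also enters r. Pearson's r was 0.95 between Hal and Uroc1, 0.95 between Hal and Gls2, 0.94 between Amdhd1 and Gls2 and 0.92 between Uroc1 and Gls2. It was 0.91 between the genomic neighbours Hal and Amdhd1. On the levels themselves, with the differences between experiments left in, r was 0.95 for Hal and Amdhd1 and 0.75 for Hal and Uroc1, so which of these pairs was closer depended on that step. Ftcd stood apart, with r from 0.37 with Hal and Uroc1 to 0.60 with Sds. Sds lay between, with 0.58 with Uroc1 and 0.82 with Gls2.

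**Figure D4:**
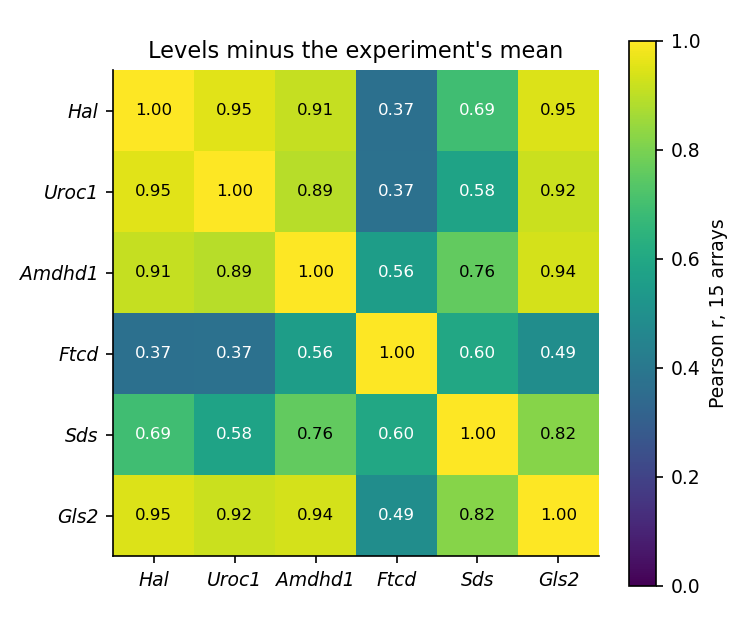
Pearson's r between the levels of each pair of genes over 15 arrays (colour scale and printed value), after the mean of the experiment was subtracted from each level. Differences between fractions were left in. The block of Hal, Uroc1, Amdhd1 and Gls2 holds values of 0.89 to 0.95 off the diagonal, while the Ftcd row holds 0.37 to 0.60.

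The genes with the nearest patterns over the 15 arrays were looked up for each member on the same scale. Since differences between fractions enter that scale, the difference of a gene found this way is no separate support. Hsd17b13, a lipid droplet protein of hepatocytes, was the nearest to Uroc1 (r = 0.97) and second to Hal (r = 0.95). It was itself higher in 8c than in 2c, by a log2 difference of 0.55 ± 0.08 (SE; limma, adjusted p = 0.00801). Uroc1 and Amdhd1 shared Ctnnbip1, an inhibitor of beta-catenin, at r of 0.95 and 0.92. Ctnnbip1 was higher in 8c by 0.47 (limma, adjusted p = 0.00977) and in 4c by 0.42 (limma, adjusted p = 0.0371) than in 2c, on the log2 scale. Without the 6 acinar arrays the 8c difference was 0.53 for Hsd17b13 and 0.40 for Ctnnbip1, and the 4c difference of Ctnnbip1 was 0.47 (limma, adjusted p of 0.467, 0.61 and 0.458). The nearest to Amdhd1 was Cnpy3 (r = 0.95), whose own 8c minus 2c difference was 0.11 and did not pass. Gdnf, a growth factor gene, was nearest to Gls2 (r = 0.95) and among the 3 nearest to Sds (r = 0.90), and Map3k21 was among the 3 nearest to Gls2 (r = 0.94). Nearest to Sds were Cxcl14, a chemokine (r = 0.91), and Clec2d2l2 (r = 0.90). Ftcd shared none of these and was nearest to Asmtl (r = 0.98), Apof, an apolipoprotein (r = 0.97), and Ctdsp1 (r = 0.97), none of which passed in any of the 3 comparisons.

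The lists of pathway partners held few calls. Over all 17055 features, 2552 had an unadjusted p under 0.05 for 8c minus 2c, 2707 for 4c minus 2c and 1324 for 8c minus 4c (limma). None of 19 measured partners of histidine and one-carbon folate metabolism was called in any comparison (limma; 4 had an unadjusted p under 0.05 for 8c minus 2c, 5 for 4c minus 2c and 2 for 8c minus 4c), and their median difference for 8c minus 2c was -0.09 beside -0.02 over all features. The brightest were Gnmt, which methylates glycine, with a difference of 0.16 ± 0.11, and Aldh1l1, which oxidises formyltetrahydrofolate, with -0.22 ± 0.08 (SE). Neither passed (limma, adjusted p = 0.537 and 0.219). None of 19 measured genes of serine, glycine and threonine metabolism was called either, with a median of 0.03 (limma; 7, 4 and 2 with an unadjusted p under 0.05 in the same order of comparisons). The brightest were Glyctk, glycerate kinase, with 0.27 ± 0.06, and Gcsh, a subunit of the glycine cleavage system, with 0.07 ± 0.06 (SE; limma, adjusted p = 0.0601 and 0.681).

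Glutamine metabolism held calls in both directions. Of 16 measured genes of glutamine and ammonia, 1 was called higher in 8c, against 0.809% of all features, and 2 were called lower, against 1.56%. Slc38a4, an amino acid transporter, was higher by 0.43 ± 0.09 (SE; limma, adjusted p = 0.0395). Glul, which makes glutamine and so runs opposite to Gls2, had a mean log2 level of 0.68 ± 1.20 in 8c, 1.71 ± 0.68 in 4c and 3.93 ± 0.50 in 2c (SD, n = 5 each). In 8c cells it was lower by 9.47-fold against 2c (limma, adjusted p = 0.00107), and lower in 5 of 5 experiments. Glud1, glutamate dehydrogenase, was lower in 8c by a log2 difference of -0.33 ± 0.06 (SE; limma, adjusted p = 0.0271). In 4c minus 2c, where 1.01% of all features were called lower, only Glul was called in this list, with -2.22 ± 0.28 (SE; limma, adjusted p = 0.0141), and none was in 8c minus 4c. In the fit that left out the acinar arrays, the 8c minus 2c difference was 0.44 for Slc38a4, -2.50 for Glul and -0.23 for Glud1, and the 4c minus 2c difference of Glul was -2.15 (limma, adjusted p of 0.717, 0.158, 0.768 and 0.215).

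Enzymes for other amino acids had a median close to that of all features. Of 44 measured, none was called higher in 8c and 2 were called lower, with a median of 0.02 for 8c minus 2c. These were Oat, which turns ornithine toward glutamate and is known from pericentral cells, with -1.19 ± 0.11 (SE; limma, adjusted p = 0.00107), and Csad, an enzyme of taurine synthesis, with -1.69 ± 0.31 (SE; limma, adjusted p = 0.0213). With the acinar arrays left out, these were -1.06 for Oat and -0.84 for Csad (limma, adjusted p of 0.203 and 0.751). Of 20 regulators and genes that respond to glucagon or glucocorticoids, hormones known to raise Hal and Sds in rat liver, none was called and the median was 0.09 (limma; 3 with an unadjusted p under 0.05, as had 2552 of the 17055 features). Igfbp1 and Gcgr, the glucagon receptor, were the brightest, with 0.17 ± 0.08 and 0.17 ± 0.07 (SE; limma, adjusted p = 0.339 and 0.299).

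The members were set beside the zonation lists, with no test of the difference between lists. These lists, like those above, were chosen with earlier results of these data known, so their counts and medians are descriptions. Of 23 other periportal genes measured, 2 were called higher in 8c than in 2c and 21 had a positive difference, with a median of 0.16. Over all features, 0.809% were called higher and 44.7% had a positive difference. The 2 were Hsd17b13 and Arg1, the arginase of the urea cycle, at 0.33 ± 0.07 (SE; limma, adjusted p = 0.0424). Of 18 pericentral genes, 9 were lower in 8c, against 1.56% of all features, with a median of -0.76, and Glul and Oat are counted in this list too. The largest fall among them was that of Slc1a2, a glutamate transporter, which was 9.62-fold lower, followed by Glul, Slc13a3 at -1.85 and Rhbg, an ammonium transporter, at -1.67 (limma, adjusted p of 0.00107, 0.00107, 0.00852 and 0.00527). In 4c, 3 pericentral genes were lower than in 2c (Slc1a2, Glul and Oat), against 1.01% of all features. No other periportal gene was called in 4c minus 2c, where 10 of 23 had an unadjusted p under 0.05 (limma). So had 2707 of the 17055 features. Of these periportal genes, Fbp1, an enzyme of gluconeogenesis, was at 0.26 ± 0.08 (SE; limma, adjusted p = 0.163). Without the 6 acinar arrays the 8c minus 2c difference was 0.25 for Arg1, -2.62 for Slc1a2, -1.07 for Slc13a3 and -1.80 for Rhbg (limma, adjusted p of 0.767, 0.212, 0.4 and 0.212). The 4c minus 2c difference was then -2.34 for Slc1a2 and -0.91 for Oat (limma, adjusted p = 0.215 for both). No list held a call in 8c minus 4c, with 1 to 5 genes per list at an unadjusted p under 0.05, as had 1324 of the 17055 features (limma). The list medians of the members, 0.37, and of the other periportal genes, 0.16, were thus both above the -0.02 of all features, and that of the pericentral genes below it.

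**Figure D5:**
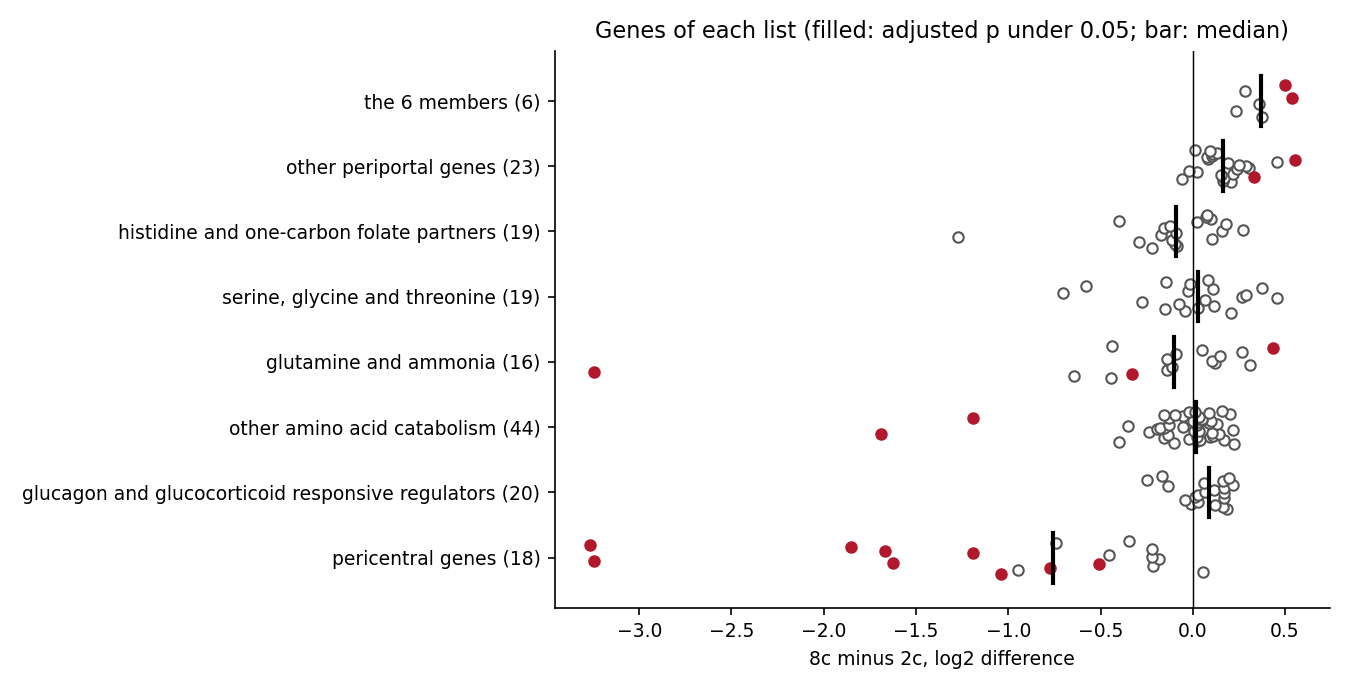
Difference of 8c minus 2c (horizontal axis, log2) for the 6 genes and each list, with 1 point per gene, the number measured in brackets, filled points for an adjusted p under 0.05 and a black bar at the list's median. The 6 genes lie between 0.24 and 0.54, and the filled points of the pericentral genes reach -3.27.

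Promoter windows of 300 bases, from 250 before to 50 after the annotated start, were available in the RefSeq table (GRCr8) for 3 of the 6 genes: Uroc1, Ftcd and Gls2, the last with 2 windows. They are shown because Uroc1 and Gls2 moved together and Ftcd did not. Capitals mark matches, on either strand, to any of 10 motifs.
Uroc1, chr4:124401869-124402168, plus strand: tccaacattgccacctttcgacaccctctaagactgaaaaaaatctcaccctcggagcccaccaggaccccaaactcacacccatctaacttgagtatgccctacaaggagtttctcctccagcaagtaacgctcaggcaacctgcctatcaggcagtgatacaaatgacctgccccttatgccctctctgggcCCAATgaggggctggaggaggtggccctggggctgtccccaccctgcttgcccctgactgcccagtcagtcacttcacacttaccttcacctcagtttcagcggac
Gls2, first window, chr7:1201629-1201928, plus strand: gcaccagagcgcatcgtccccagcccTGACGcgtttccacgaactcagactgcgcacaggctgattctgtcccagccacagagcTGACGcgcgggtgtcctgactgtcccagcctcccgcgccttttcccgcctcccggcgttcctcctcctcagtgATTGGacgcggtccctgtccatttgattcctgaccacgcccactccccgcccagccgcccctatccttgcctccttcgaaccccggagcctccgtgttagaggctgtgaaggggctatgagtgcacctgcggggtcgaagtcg
Ftcd, chr20:12068170-12068469, minus strand: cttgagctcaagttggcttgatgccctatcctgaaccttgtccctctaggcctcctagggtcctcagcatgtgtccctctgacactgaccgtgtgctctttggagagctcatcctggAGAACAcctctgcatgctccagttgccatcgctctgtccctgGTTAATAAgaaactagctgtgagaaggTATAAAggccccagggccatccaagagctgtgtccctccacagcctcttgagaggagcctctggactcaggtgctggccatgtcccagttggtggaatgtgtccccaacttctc
The Uroc1 and first Gls2 windows share a CCAAT match, at positions -56 and -93 from the start, which 37.5% of the 33469 windows in the table also hold. The first Gls2 window holds TGACG, the core of the cAMP response element TGACGTCA, 2 times upstream of the CCAAT match, and 21.2% of windows hold TGACG. The Ftcd window holds TATAAA at -64 (14.2% of windows), GTTAATNA, part of the HNF1 site, at -91 (2.59%) and TGTTCT, part of the glucocorticoid response element, at -133 (20.7%). TGACGTCA, TTGCNNAA for C/EBP, CAAAGTCCA for HNF4, CTTTGAT for TCF and CACGTG, the E box, matched none of the member windows. The second Gls2 window matched no motif. A match is only a run of letters and not evidence of a bound factor.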

How the data were processed

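Expression was measured in 15 samples on one-colour Agilent arrays of 62976 spots, 4259 of them controls. The deposited files give each spot's intensity on a linear scale. The authors' processed signal is background-subtracted, per the file headers, which name Feature Extraction 11.5.1.1 (10.7.3.1 per the submitters' processing notes). The deposited series table holds the same intensity on a linear scale and served as an alternative. The extraction software's flags in the deposited files, stored as other values of 0 or 1, marked probes well above background (39.5% to 47.4% of probes per array). No spot was saturated. Number of arrays limits the precision.

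Control spots and outlier spots were left out and spots of a probe averaged. log2 signals were centred on each array's 75th percentile over the 16211 probes above background on all arrays. Probes above background on at least 5 arrays were kept, with the brightest probe per gene, which gave 17055 features. limma 3.58.1 in R 4.3.3 fitted DNA content with experiment as a block, two-sided, with Benjamini-Hochberg adjustment over all features and a threshold of 0.05. Fractions of an experiment carry the same number and age in the labels. Deviations from the group means correlated with a median r of 0.59 within experiments and -0.16 between them, so the number was taken to pair samples. The labels call the experiments independent without saying how many rats each used, so the unit is the experiment. The fractions were fitted together, so all comparisons of a gene share a single estimate of spread. limma also draws that estimate toward the spread of other features. The p-values set each difference against this pooled variation of the fractions within experiments, not against the spread of that pair of fractions alone. The block removed differences in level between experiments. The script was tested on simulated data with independent noise for each gene and array. These held no slide or acinar differences between arrays of an experiment, so that test cannot bear on them. Named were all members, per list and comparison up to 4 called genes by size (or the brightest 2 if none was called), and the 3 genes of nearest pattern per member. A gene that this rule names is not reported here. The members, lists and motifs were chosen with earlier results of these data known. Alternatives are described in the closing section.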

Additional observations from a re-analysis of the deposited data

Results flagged for a closer look

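In a check of each gene and fraction for 1 array far from the others of its group (Dixon's ratio, 95% level), 1 of 18 groups of levels stood out, where chance alone gives about 1 in 20. The same check of the differences between fractions found 0 of 18 groups. The Ftcd level in 8c cells of experiment 4 was 2.56, the lowest of the 8c arrays by a wide gap, while the other 4 lay between 3.21 and 3.45. Sds on the same array was 0.28, also the lowest of its group.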

How the results depend on the processing

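Under all 34 alternatives the 8c minus 2c and 4c minus 2c differences of Hal, Uroc1, Amdhd1 and Gls2 stayed positive. Uroc1 kept its side of the threshold in 28 of 34 for 8c minus 2c and in 8 of 34 for 4c minus 2c, and Hal in 10 of 34 for 8c minus 2c. Of the 2 members called in 8c minus 2c, 1 was called with quantile normalization, no filter on dim probes, the replicate block with the slide as a further term, or the slide in place of the experiment. None (0) was called with no replicate block, within slide 1, within slide 2 or without the arrays with acinar transcripts. With no replicate block, the limma adjusted p was 0.993 for Hal and 0.157 for Uroc1. The 1 call in 4c minus 2c became 0 with normexp, no filter, no replicate block, the replicate block with slide, slide in place of experiment, within either slide and without the acinar arrays. The replicate block with slide is, for these comparisons, the same fit as leaving out 8c of experiment 3. Leaving out arrays or experiments gave 0 to 2 calls in 8c minus 2c and 0 to 1 in 4c minus 2c. Calls in 8c minus 4c and for age were 0 throughout, and within slide 2 the age term could not be fitted. The same fits of all features called 0 to 528 for 8c minus 2c, against 404 in the reported fit.

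Signs turned only for differences that were not called. For 8c minus 4c, Amdhd1 was 0.17 with slide in place of experiment and 0.13 within slide 1, Sds 0.20 within slide 1, Hal -0.0089 within slide 2, and Gls2 -0.029 with quantile normalization, -0.10 within slide 2 and -0.097 without acinar arrays. For 8c minus 2c, Ftcd was -0.34 within slide 2 and -0.28 without acinar arrays, and Sds -0.30 and -0.27. Both fits held 8c and 2c pairs only for experiments 4 and 5. The age slope was -0.0039, -0.0015 and -0.0074 for Hal with quantile normalization, the percentile over all probes and normexp, and -0.0024 and -0.0015 for Uroc1 with the last 2. With arrays or experiments left out, 8c minus 4c ran from -0.096 to 0.058 for Amdhd1, -0.053 to 0.065 for Gls2 and -0.25 to 0.12 for Sds. The age slope ran from -0.042 to 0.044 for Amdhd1, -0.015 to 0.14 for Ftcd, -0.025 to 0.061 for Gls2, -0.073 to 0.039 for Hal and -0.037 to 0.019 for Uroc1. The causes were not tested.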
